A study of Mus musculus with 18 samples.

Results

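The 5 genes Pvalb, Runx3, Etv1, Spp1 and Whrn, all used as markers of proprioceptors, were taken by their symbols from a deposited table of 17198 genes measured by RNA sequencing in cultured neurons of mouse dorsal root ganglia (DRG). The ganglia lie beside the spinal cord and hold the cell bodies of sensory neurons. Each symbol matched a single row. The 18 cultures came from wild-type mice (WT) and from mice heterozygous for the tm1a allele of Dynlrb1 (Dynlrb1tm1a/+, here HET), and RNA was taken after 12, 24 or 48 h in culture, with 3 cultures for each genotype and time. Dynlrb1 encodes a roadblock-type subunit of cytoplasmic dynein, which moves signals and organelles from axon endings back to the soma, and tm1a is the name of a knockout-first allele design that would act in every cell of the animal. All cultures hold the mixture of neuron classes and other cells that a ganglion gives, and none was sorted for proprioceptors as far as the labels say. Strain, age and sex of the mice, and which cultures shared an animal, are not given in the labels used here. The series' design text calls the 3 cultures of a group biological repeats, and the p-values measure the spread between them. The comparison of genotypes over time addresses how the markers of the neurons that serve proprioception behave when Dynlrb1 is reduced.

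Proprioceptors are the sensory neurons that report muscle length and tension from muscle spindles and tendon organs. During development they depend on neurotrophin-3, which muscle supplies and which signals through the receptor TrkC (gene Ntrk3). Runx3, a Runt-domain transcription factor, maintains TrkC and suppresses TrkB in these neurons and guides their axons into the spinal cord. Etv1, an ETS-family transcription factor, is induced by neurotrophin-3 and is required for the connections of many proprioceptors with motor neurons. Pvalb encodes parvalbumin, a calcium-binding protein of the EF-hand family and the usual histological marker of proprioceptors. Spp1 encodes osteopontin, a secreted phosphoprotein that binds integrins and CD44 and that macrophages also make. Whrn encodes whirlin, a scaffold protein with PDZ domains known from hair-cell stereocilia.

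The genes lie on 4 chromosomes of the mouse build GRCm38, to which the submitters' mm10 corresponds. Runx3 (ENSMUSG00000070691) occupies chr4:135120652-135177990 on the plus strand, and Whrn (ENSMUSG00000039137) occupies chr4:63414910-63495991 on the minus strand of the same chromosome. Etv1 (ENSMUSG00000004151) occupies chr12:38779380-38870484 and Spp1 (ENSMUSG00000029304) chr5:104435118-104441050, both on the plus strand. Pvalb (ENSMUSG00000005716) occupies chr15:78191114-78206400 on the minus strand. Each measured value covers the whole gene, and the table does not tell exons or isoforms apart.

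The RefSeq promoter table for build GRCm38.p6 held windows for all 5 genes, each from 250 bases before to 50 bases after an annotated start site. Because Runx3 is itself a member, the windows were searched for the core of the RUNX recognition sequence, TGTGGT or its reverse complement ACCACA. The table held 9 windows, 1 for Whrn and 2, at different start sites, for each other gene. The core was in 3 of the 9, at the outermost RefSeq start of Runx3, Etv1 and Spp1, and not in the second window of any of the 3. For Etv1 that window lies inside the gene position given above, which begins at 38779380. The 250 bases before these outermost starts are shown, 5′ to 3′, with the core in capitals, at chr4:135120395-135120644 for Runx3, chr12:38779832-38780081 for Etv1 and chr5:104434861-104435110 for Spp1, all on the plus strand.

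Runx3: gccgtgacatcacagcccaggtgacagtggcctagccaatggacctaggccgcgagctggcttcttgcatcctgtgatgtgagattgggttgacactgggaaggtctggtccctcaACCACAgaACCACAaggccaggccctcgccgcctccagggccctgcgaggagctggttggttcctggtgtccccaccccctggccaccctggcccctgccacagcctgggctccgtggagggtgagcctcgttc

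Etv1: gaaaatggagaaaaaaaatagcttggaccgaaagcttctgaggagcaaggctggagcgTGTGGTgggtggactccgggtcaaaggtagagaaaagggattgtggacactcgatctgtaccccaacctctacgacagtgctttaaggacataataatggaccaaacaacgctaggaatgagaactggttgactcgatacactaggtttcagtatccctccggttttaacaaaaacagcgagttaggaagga

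Spp1: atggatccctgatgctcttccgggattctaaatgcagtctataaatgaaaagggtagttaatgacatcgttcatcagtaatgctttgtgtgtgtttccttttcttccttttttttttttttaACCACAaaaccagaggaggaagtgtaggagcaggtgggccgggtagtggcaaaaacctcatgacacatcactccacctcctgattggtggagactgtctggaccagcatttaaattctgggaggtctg

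The shown Runx3 window held 2 copies of the core, starting 134 and 126 bases before the start site. That of Etv1 held 1 copy at 192 bases before the start and that of Spp1 1 copy at 128 bases before it. Of 32851 windows of the same length in the table, 16.8% held the core and 1.81% held it at least 2 times. The ETS core CCGGAA or TTCCGG, which factors of Etv1's family recognise, was present in 2 of the 9 windows, at the outermost start of Pvalb (96 bases before it) and of Spp1 (233 bases before), against 14.9% of all windows. A match is a description of the sequence, not of binding.

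Several facts of the whole series touch the values below. Levels are the authors' normalized counts, which sum to the same total in every culture (41509700 to 41509900), so the sequencing depth of each culture is not known from them and no counting error can be given. Dynlrb1 itself was between 2716 and 4087 normalized counts in the 9 HET cultures and between 5229 and 6674 in the 9 WT cultures, with no overlap. Log2 values of cultures of 1 group correlated over all genes with r between 0.978 and 0.992. When each culture was placed between the mean of WT at 12 h (position 0) and the mean of WT at 48 h (position 1) over all genes, WT cultures at 48 h stood at 0.807 to 1.16 and HET cultures at 48 h at 0.761, 0.628 and 0.273. The last of these, HET replicate 3 at 48 h, stood just below the 24 h cultures of both genotypes, which lay between 0.282 and 0.532. Its label gives 48 h, and results that moved without it are given both ways.

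Per length of transcript, the 5 genes were present at very unequal levels. In WT cultures at 12 h, mean FPKM (fragments per kilobase of transcript, scaled to library size) was 30.9 ± 14.03 (SD, n = 3) for Pvalb and 24.4 ± 13.7 for Spp1. Etv1 had 5.77 ± 0.828, Whrn 3.57 ± 1.16 and Runx3 0.700 ± 0.263. Pvalb thus stood at the 85.0th percentile of all genes in that group and Runx3 at the 23.5th. By 48 h in WT the order had changed: Spp1 had 109 ± 11.1 FPKM (96.7th percentile), Pvalb 13.01 ± 2.14, Whrn 9.92 ± 2.72, Etv1 1.23 ± 0.446 and Runx3 0.327 ± 0.0691. All 5 genes were detected in every culture, the lowest value being 25.9 normalized counts for Runx3.

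The wider set of proprioceptor-linked genes was detected too. All 19 genes of that list, which includes Ntrk3, Piezo2 (the mechanically gated channel of proprioceptors and touch receptors) and Pou4f3, were measured. Their lowest value in any culture was 9.03 normalized counts. No gene of the deposited table was at 0, its smallest value being 0.447. The summed FPKM of the 19 genes was 427 to 644 in WT at 12 h and 378 to 523 in HET at 12 h. Markers of nociceptors and pruriceptors summed to 2032 to 2553 FPKM in WT at 12 h over 17 genes. Markers of satellite glia and Schwann cells summed to 1005 to 1256 FPKM in those cultures, those of macrophages to 36.6 to 72.0 and those of fibroblasts to 43.3 to 92.9. These sums are over unlike genes and do not compare the amounts of cell types. Single genes carried much of them: mean FPKM in WT at 12 h was 273 for Fxyd7 (proprioceptor-linked) and 985 for Calca (nociceptor). In such mixtures fewer cells of a type and less RNA per cell cannot be told apart.

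**Figure D1:**
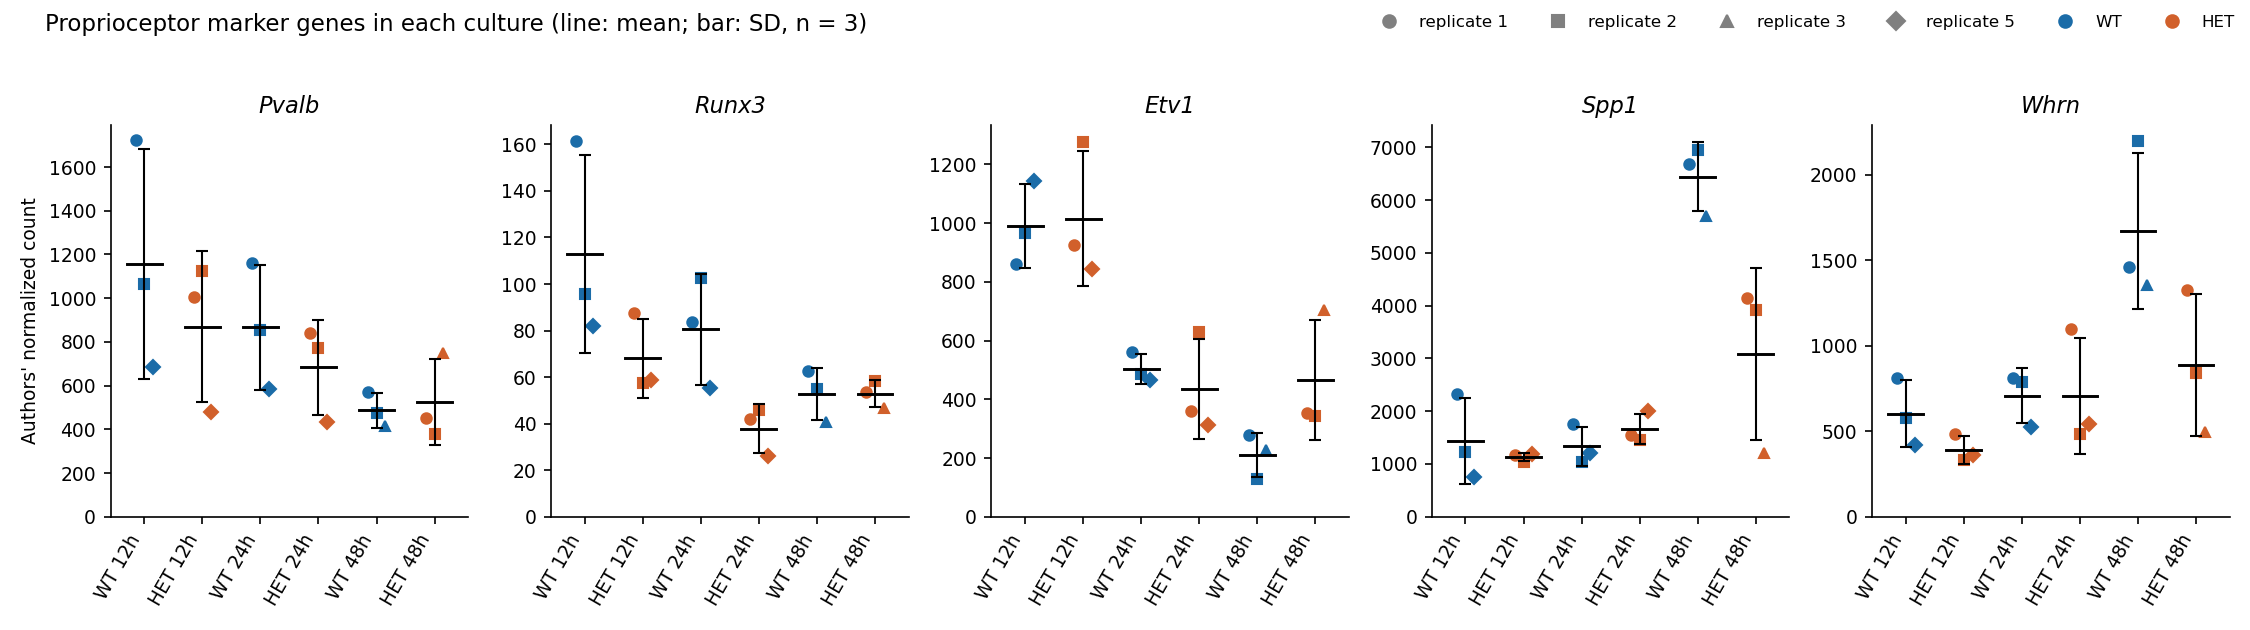
Authors' normalized counts (vertical axes, starting at 0) of the 5 marker genes in each of the 18 cultures, by genotype and hours in culture; points are cultures with the replicate number as the symbol, lines are group means and bars are SD (n = 3). Spp1 and Whrn were highest in the WT cultures at 48 h, where Etv1 was lowest.

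Etv1, the ETS factor, had the steadiest course of the 5. In WT cultures it was at 862, 965 and 1143 normalized counts at 12 h, at 559, 486 and 464 at 24 h, and at 278, 127 and 226 at 48 h (replicates 1, 2 and 5 at 12 and 24 h; 1, 2 and 3 at 48 h, as throughout). The 3 times did not overlap in WT. In HET cultures it was at 925, 1277 and 845 at 12 h, at 361, 628 and 314 at 24 h, and at 354, 343 and 703 at 48 h. HET cultures at 24 and 48 h overlapped, and replicate 3 at 48 h was the highest of its group.

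Runx3, the Runt-domain factor, had the lowest counts. WT cultures had 162, 95.5 and 82.2 normalized counts at 12 h, 83.7, 103 and 55.2 at 24 h, and 62.7, 54.9 and 40.7 at 48 h. HET cultures had 87.6, 57.6 and 58.8 at 12 h, 41.8, 45.8 and 25.9 at 24 h, and 53.6, 58.2 and 46.7 at 48 h. The 24 h HET cultures were the lowest group, and all 3 lay below the 3 WT cultures of that time.

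Pvalb, the calcium-binding marker, was highest at 12 h and varied widely between replicates. WT cultures had 1723, 1063 and 684 normalized counts at 12 h, 1159, 856 and 586 at 24 h, and 573, 477 and 413 at 48 h. HET cultures had 1006, 1126 and 478 at 12 h, 841, 772 and 436 at 24 h, and 449.5, 379 and 750.3 at 48 h. Replicate 5 was the lowest culture in all 4 groups at 12 and 24 h, and HET replicate 3 was the highest at 48 h. Neighbouring groups overlapped throughout the order of their means, which ran from WT at 12 h (1157 ± 526) through HET at 12 h, WT at 24 h, HET at 24 h and HET at 48 h to WT at 48 h (488 ± 80.3).

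Spp1, the gene of osteopontin, ran the other way. WT cultures had 2330.4, 1226 and 752 normalized counts at 12 h, 1755, 1044 and 1213 at 24 h, and 6693, 6944 and 5706 at 48 h. HET cultures had 1174, 1036 and 1182 at 12 h, 1549.8, 1454 and 1995 at 24 h, and 4149, 3914 and 1214 at 48 h. The 3 WT cultures at 48 h stood above every other culture, and HET replicate 3 at 48 h remained within the range of the earlier times.

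Whrn, the scaffold gene, followed the course of Spp1 at a lower level. WT cultures had 809, 577 and 419 normalized counts at 12 h, 810.0, 789.6 and 525 at 24 h, and 1460.5, 2195 and 1356 at 48 h. HET cultures had 481, 329 and 359.8 at 12 h, 1097, 483 and 539 at 24 h, and 1326, 837 and 496 at 48 h. WT at 48 h again lay above all other cultures, and HET replicate 3 was again the lowest of its group.

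The order of the group means placed WT at 48 h at an end of its own for Etv1, Spp1 and Whrn. For Etv1 the 2 groups at 12 h led (HET 1016 ± 229.5, WT 989.9 ± 142) and did not overlap the next group, WT at 24 h (503 ± 49.8). HET at 48 h (467 ± 204) and HET at 24 h (434 ± 169.7) followed with overlap, and WT at 48 h (210.3 ± 76.5) was last and apart. For Spp1, WT at 48 h (6447 ± 654) stood apart from HET at 48 h (3092 ± 1631), and the remaining groups overlapped down to HET at 12 h (1131 ± 82.0). For Whrn, WT at 48 h (1670.5 ± 457) stood apart from HET at 48 h (887 ± 417), and each later neighbour overlapped down to HET at 12 h (389.9 ± 80.2). Runx3 ran from WT at 12 h (113 ± 42.5) to HET at 24 h (37.8 ± 10.5) with every neighbour overlapping.

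Between 12 and 48 h in WT cultures, all 5 markers changed, and not in 1 direction: Spp1 and Whrn rose, and Etv1, Pvalb and Runx3 fell (limma on log2 of the normalized count plus 1, Benjamini-Hochberg over all genes, adjusted p threshold 0.05). Calls were common over the whole table in this comparison, at 47.1% of all genes, 30% higher and 17.1% lower. Spp1 rose 4.97-fold, by 2.31 on the log2 scale (SE 0.39, adjusted p = 2.35e-04). Whrn rose 2.81-fold, by 1.49 (SE 0.35, adjusted p = 0.00248). Both rises far exceeded the median shift of all genes in this comparison, 0.11 in WT and 0.10 in HET.

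The genes that fell included both transcription factors. Etv1 fell to 20.4% of its 12 h level, a log2 difference of -2.29 (SE 0.31, adjusted p = 5.17e-05). Pvalb fell to 44.9%, -1.16 on the log2 scale (SE 0.38, adjusted p = 0.0183), and Runx3 to 48.5%, -1.04 (SE 0.31, adjusted p = 0.0103). None of the 5 genes' WT ranges overlapped between 12 and 48 h, as for 55.3% of all genes. The calls of Pvalb and Runx3 were lost without WT replicate 1 at 12 h, which was the highest culture for both (adjusted p = 0.101 and 0.0626). Pvalb's was also lost without WT replicate 2 or 3 at 48 h (adjusted p = 0.0501 and 0.0578).

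Most of the WT change came after 24 h. From 24 to 48 h, 3 of the 5 genes passed the test, as did 27.7% of all genes: Spp1 rose by 2.30 on the log2 scale (SE 0.39, adjusted p = 0.00343), Whrn rose by 1.23 (SE 0.35, adjusted p = 0.0169) and Etv1 fell by 1.32 (SE 0.31, adjusted p = 0.00667). The ranges of Pvalb also did not overlap between these times, making 4 of 5 genes against 46% of all genes, but its difference of -0.79 had an adjusted p of 0.126. Whrn's call was lost without WT replicate 5 at 24 h or WT replicate 2 at 48 h (adjusted p = 0.0624 and 0.0856). From 12 to 24 h in WT none of the 5 passed, against 3.62% of all genes, and 1 had an unadjusted p under 0.05, against 21.4%. That gene was Etv1, at -0.97 (SE 0.31, adjusted p = 0.0834), whose ranges did not overlap, as for 26.9% of all genes. The authors' deposited table, from edgeR, gives Etv1 in this comparison a log2 fold change of -0.98 with an adjusted p of 0.0254.

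In HET cultures the same 3 genes, Etv1, Spp1 and Whrn, passed the test between 12 and 48 h, against 14.2% of all genes. Etv1 fell to 44.1% of its 12 h level, a log2 difference of -1.18 (SE 0.31, adjusted p = 0.0233). Spp1 rose 2.39-fold, by 1.26 (SE 0.39, adjusted p = 0.0425), and Whrn 2.13-fold, by 1.09 (SE 0.35, adjusted p = 0.0466). Pvalb differed by -0.69 (adjusted p = 0.214) and Runx3 by -0.34 (adjusted p = 0.472), neither past the threshold. With 1 culture left out, Pvalb's difference ran from -1.08 to -0.46, also short of it (lowest adjusted p = 0.0717). With the replicate number as a block it was -1.32 (adjusted p = 6.47e-05), but the numbers were not taken as pairs between times. Number 3 was used at 48 h alone, so this block sets HET replicate 3 at 48 h aside. The blocked difference of Pvalb was the same, -1.32, with that culture left out. The ranges of the 3 called genes did not overlap between the times, as for 29.7% of all genes.

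The HET calls of Spp1 and Whrn between 12 and 48 h were lost under quantile normalization (adjusted p = 0.0588 and 0.0835). They were also lost in the unscaled columns (0.0591 and 0.0766). With the groups compared alone in the fit, all 3 calls were lost (adjusted p between 0.0983 and 0.123). These HET calls also rested on few cultures. Without HET replicate 3 at 48 h the differences grew to -1.52 for Etv1, 1.83 for Spp1 and 1.45 for Whrn (adjusted p = 0.00176, 7.45e-04 and 0.00564). Leaving out replicate 1 or 2 at 48 h instead removed all 3 calls (adjusted p between 0.114 and 0.231), as did leaving out replicate 2 at 12 h (between 0.108 and 0.154). Leaving out replicate 1 or 5 at 12 h removed those of Spp1 and Whrn (adjusted p between 0.0624 and 0.0986). The authors' deposited table calls the same 3 genes in this comparison (Etv1 adjusted p = 0.00303, Spp1 0.00111, Whrn 0.00558).

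The HET cultures had moved earlier as well. From 12 to 24 h in HET, Etv1 fell to 41.5% of its level, -1.27 on the log2 scale (SE 0.31, adjusted p = 0.0100), and was the 1 gene of the 5 past the threshold, against 18.9% of all genes. Its call was lost without HET replicate 2 at 12 h or replicate 5 at 24 h (adjusted p = 0.0661 and 0.0532). Ranges did not overlap for 4 of the 5 genes, against 38.4% of all genes: Etv1 and Runx3 were lower and Spp1 and Whrn higher in each 24 h culture, with adjusted p of 0.0640 for Runx3 (-0.84), 0.131 for Whrn (0.77) and 0.354 for Spp1 (0.55). From 24 to 48 h in HET none of the 5 passed, against 2.49% of all genes, and none had an unadjusted p under 0.05, against 19.1%. Runx3 was the 1 gene without overlap there, higher at 48 h in all 3 cultures (0.51, adjusted p = 0.388), as for 18.3% of all genes. Without HET replicate 3 at 48 h, Spp1 passed the test from 24 to 48 h, at 1.29 (adjusted p = 0.0109).

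The ratio of Spp1 to Pvalb in FPKM sums up the reversal between these markers. It was 0.860, 0.733 and 0.700 in WT at 12 h and 0.963, 0.775 and 1.32 in WT at 24 h, and it reached 7.43, 9.26 and 8.78 in WT at 48 h. In HET it was 0.742, 0.585 and 1.57 at 12 h, 1.17, 1.20 and 2.91 at 24 h, and 5.87, 6.57 and 1.03 at 48 h. HET replicate 3 at 48 h thus kept the ratio of the earlier cultures, while the other 5 cultures at 48 h all had more Spp1 than Pvalb by a factor above 5.

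**Figure D2:**
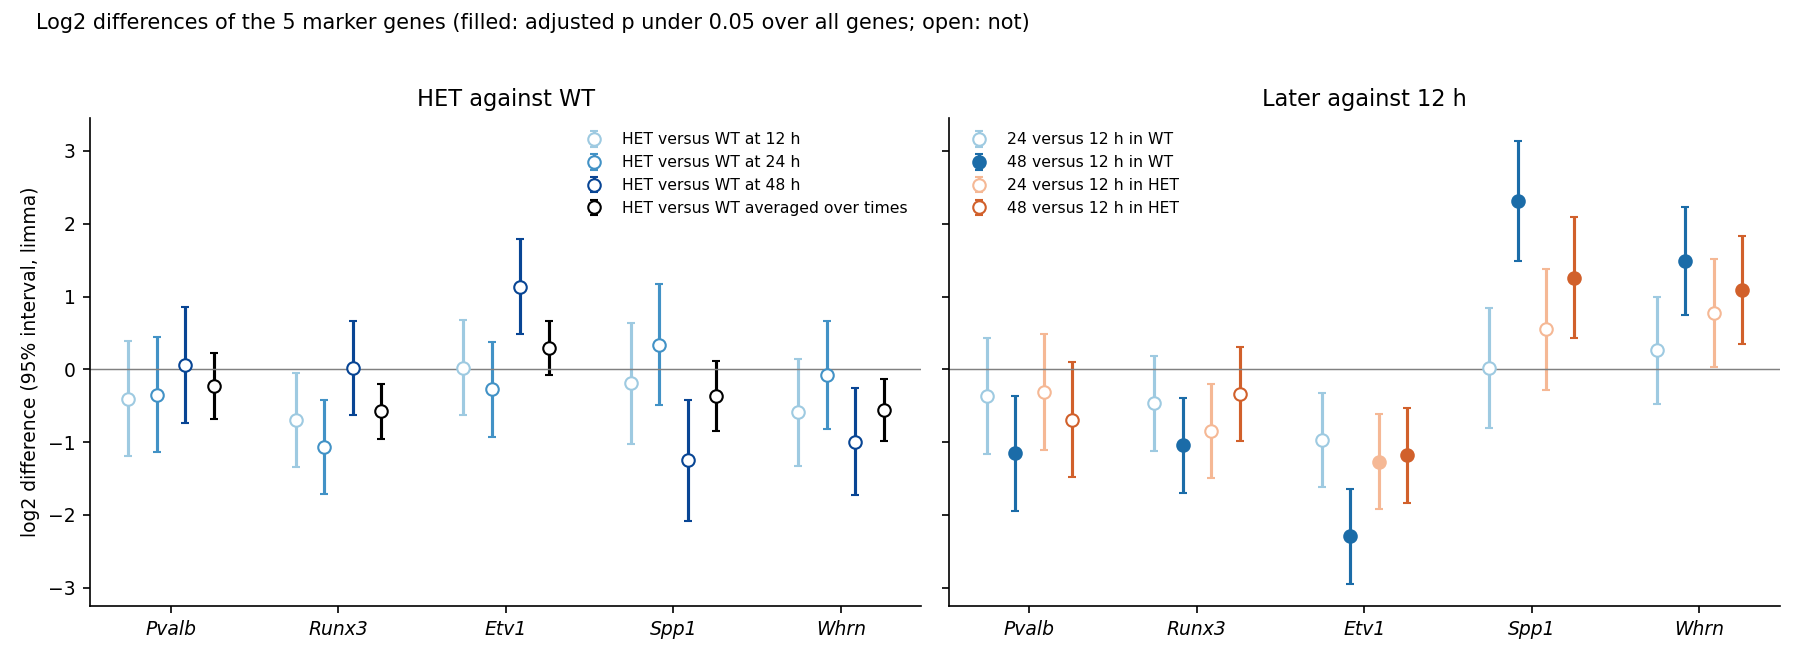
Log2 differences (vertical axis, bars are 95% intervals from limma) of the 5 marker genes between HET and WT at each time and on average (left) and between the later times and 12 h in each genotype (right); filled points passed an adjusted p of 0.05. Filled points stand in the right panel alone, 5 of them for WT at 48 h, 3 for HET at 48 h and 1 for HET at 24 h.

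At 48 h, Etv1 was 2.20-fold as high in HET as in WT, and Spp1 and Whrn were at 42.1% and 50.3% of the WT level. The ranges of these 3 genes did not overlap between the genotypes, as for 24% of all genes. In this comparison limma called none of the 5 genes and 0% of all genes. An unadjusted p under 0.05 was reached by 3 of the 5 and by 22% of all genes. The differences were 1.14 for Etv1 (SE 0.31, adjusted p = 0.0635), -1.25 for Spp1 (SE 0.39, adjusted p = 0.0870) and -0.99 for Whrn (SE 0.35, adjusted p = 0.115).

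WT and HET cultures of the same number deviated together at 48 h, and with the replicate number as a block the same differences passed (adjusted p = 0.0136 for Etv1, 0.0214 for Spp1 and 0.0233 for Whrn), as did 12.3% of all genes. Those calls rested on HET replicate 3. Without it the blocked differences were 0.89, -0.76 and -0.76 (adjusted p = 0.119, 0.187 and 0.180), and without the block they were 0.80, -0.67 and -0.63 (adjusted p = 0.318, 0.427 and 0.508). Leaving out HET replicate 1 instead raised the unblocked differences to 1.29, -1.56 and -1.34, and all 3 then passed (adjusted p = 0.0467, 0.0470 and 0.0459). Without HET replicate 2 that of Etv1 alone passed, at 1.32 (adjusted p = 0.0485). The authors' deposited table gives Etv1 an adjusted p of 0.00634 (log2 fold change 1.15), Spp1 0.0381 (-1.06) and Whrn 0.0663 (-0.91).

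The ranges of Pvalb and Runx3 overlapped between the genotypes at 48 h. Pvalb differed by 0.06 on the log2 scale (95% interval -0.73 to 0.85) and Runx3 by 0.02 (-0.63 to 0.66). These intervals leave room for differences of over 1.5-fold either way.

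**Figure D3:**
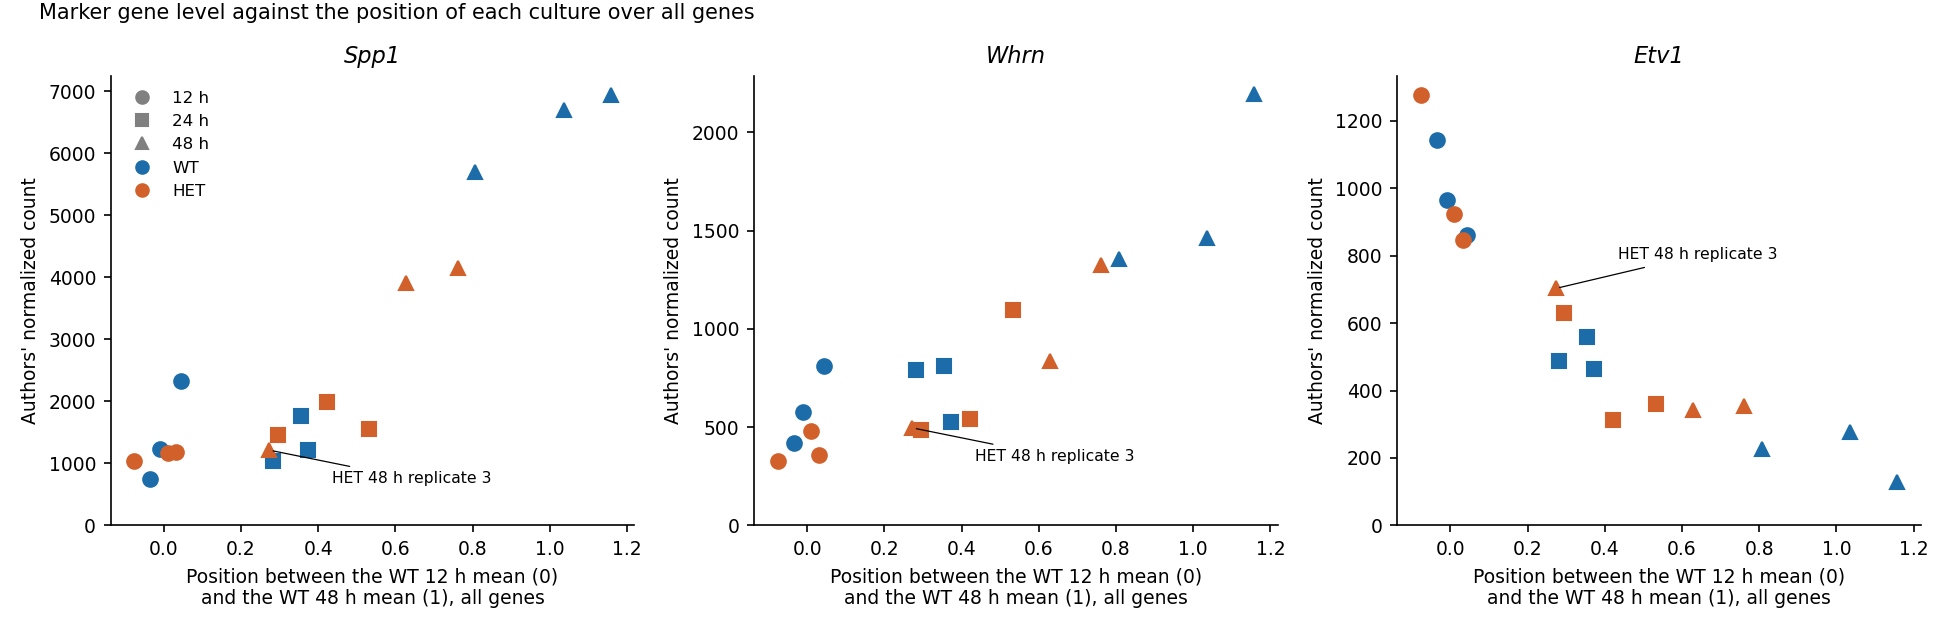
Authors' normalized counts of Spp1, Whrn and Etv1 (vertical axes) in the 18 cultures against the position of each culture between the WT means at 12 h (0) and 48 h (1) over all genes (horizontal axis, no unit); colour is genotype and symbol is time. HET replicate 3 at 48 h is at position 0.273. Its level lies within the range of the 24 h cultures for Spp1 and Whrn and above it for Etv1. The positions of the other HET cultures at 48 h (0.761 and 0.628) lie between those of the 24 h cultures and the WT cultures at 48 h. In level both do so for Spp1 and replicate 1 alone does for Whrn. For Etv1 both lie within the range of the 24 h cultures.

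The plot of levels against culture position sets Etv1, Spp1 and Whrn beside a measure built from WT at 12 and 48 h. All genes entered it, these 3 included, so a gene that changed between those groups follows it in part by construction. Spp1 did not follow it from 12 to 24 h in WT. It was at 752 to 2330 and then 1044 to 1755 normalized counts, while position at 24 h was 0.282 to 0.372. Position and genotype moved together at 48 h, since all 3 HET cultures (0.273 to 0.761) stood below the WT cultures (0.807 to 1.16). The part of this position in the differences of Etv1, Spp1 and Whrn was not tested. Macrophage markers also differed between genotypes at 48 h in the direction of Spp1. Their summed FPKM over all 12 genes was 96.9 to 153 in WT at 48 h and 57.3 to 89.5 in HET at 48 h, with no overlap. Among the 24 h cultures, HET replicate 5 was highest in both, with a macrophage sum of 134 and Spp1 at 33.8 FPKM. The HET cultures at 48 h had lower macrophage sums than that culture, with Spp1 at 20.6 to 70.4 FPKM. From 24 to 48 h in HET the median difference of the 12 genes was -0.20, and the difference of Spp1 was 0.71. None of the 12 passed the test between genotypes at 48 h, and 2 were lower in HET with the replicate block (1 without HET replicate 3). Their part in the Spp1 result was not tested. Fibroblast markers were 114 to 165 in WT and 91.0 to 163 in HET at 48 h, with overlap. Nociceptor and pruriceptor markers had a median difference of 1.12 at 48 h, the direction of Etv1, with 16 of 17 genes positive and none past the test. With the replicate block 13 of the 17 were higher in HET and 1 was lower, and without HET replicate 3 as well 9 were higher. Their summed FPKM was 1261 to 1589 in WT and 1431 to 2560.2 in HET, with overlap, and their part in the Etv1 result was not tested.

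Runx3 had lower means in HET at the earlier times, short of the threshold. At 24 h it was at 47.8% of the WT level, -1.06 on the log2 scale (SE 0.31, 95% interval -1.71 to -0.42), and was the 1 gene of 5 whose ranges did not overlap, as for 5.6% of all genes. Its unadjusted p was 0.00291 but its adjusted p was 0.99995. None of the 5 genes passed at 24 h, against 0.00581% of all genes, and 1 had an unadjusted p under 0.05, against 1.15%. At 12 h, Runx3 was at 62.0% of the WT level (-0.69, SE 0.31, adjusted p = 0.580) with overlapping ranges. At 12 h none of the 5 passed, against 0.00581% of all genes, none was without overlap, against 15.1%, and 1 had an unadjusted p under 0.05, against 8.41%.

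The ranges of the other 4 genes overlapped between genotypes at 12 and at 24 h. Whrn was at -0.59 (95% interval -1.33 to 0.14) at 12 h and -0.08 (-0.81 to 0.66) at 24 h. Pvalb was at -0.40 (-1.20 to 0.39) and -0.35 (-1.14 to 0.45). Spp1 was at -0.19 (-1.02 to 0.63) and 0.34 (-0.49 to 1.17), and Etv1 at 0.02 (-0.63 to 0.67) and -0.28 (-0.92 to 0.37). Averaged over the 3 times, none of the 5 passed, against 0.0174% of all genes, and 2 had an unadjusted p under 0.05, against 13.5%. The 2 were Runx3, at -0.58 (SE 0.18, adjusted p = 0.310), and Whrn, at -0.55 (SE 0.20, adjusted p = 0.313). The averages of the other 3 were -0.37 for Spp1, -0.23 for Pvalb and 0.29 for Etv1.

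Whether the course over time differed between genotypes was tested directly as the HET change minus the WT change. For 24 against 12 h none of the 5 genes passed and none had an unadjusted p under 0.05, against 0% and 2.15% of all genes. For 48 against 12 h none passed, against 0%, and Etv1 alone had an unadjusted p under 0.05 (1.11, SE 0.44, limma adjusted p = 0.548), against 8.92% of all genes. Spp1 differed by -1.06 (SE 0.55, adjusted p = 0.566). For 48 against 24 h, a comparison added after the values were seen, none passed, against 0%, and 3 of the 5 had an unadjusted p under 0.05, against 16% of all genes. These were Etv1 (1.41, SE 0.44, adjusted p = 0.180), Spp1 (-1.59, SE 0.55, adjusted p = 0.203) and Runx3 (1.08, SE 0.43, adjusted p = 0.244).

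**Figure D4:**
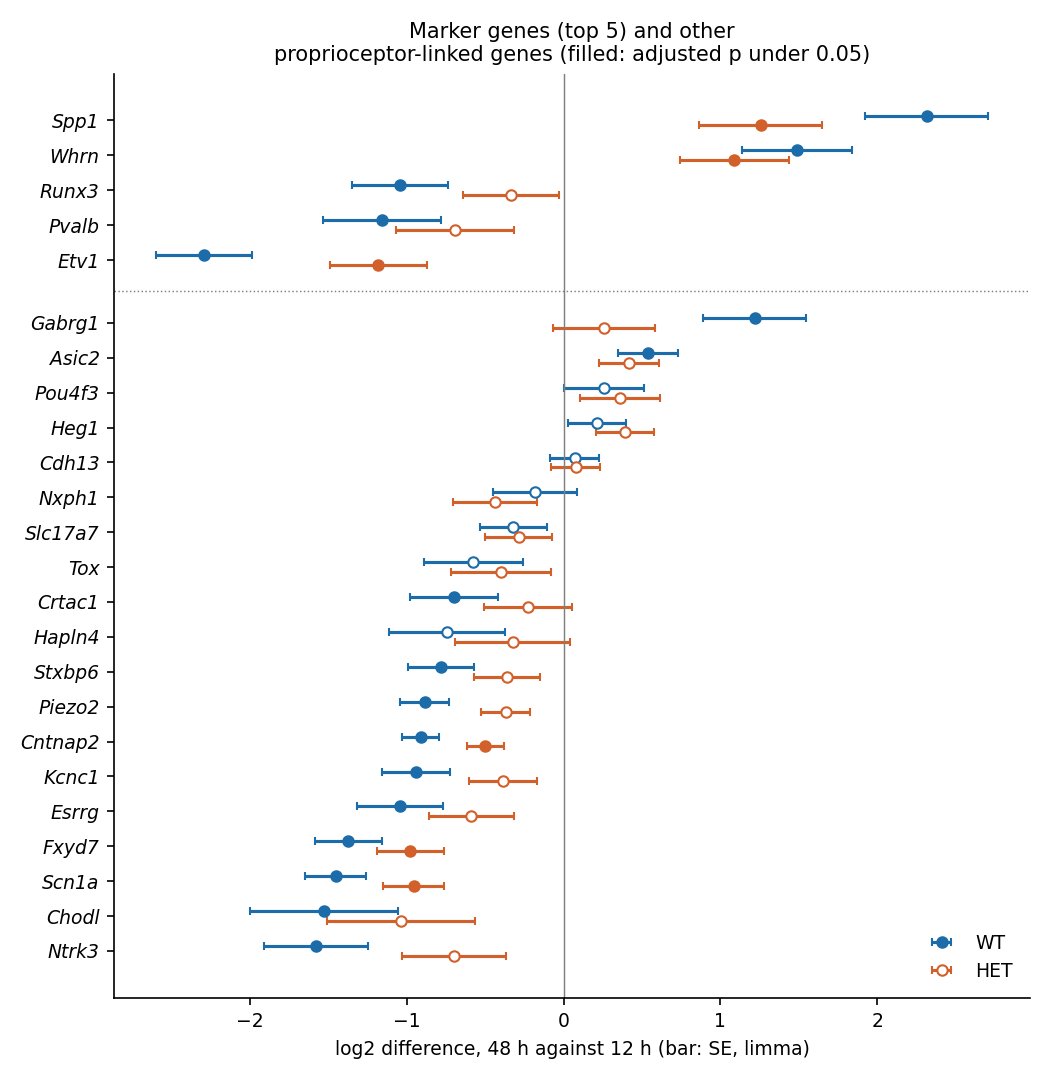
Log2 difference between 48 and 12 h (horizontal axis, bars are SE from limma) for the 5 marker genes (above the dotted line) and the 19 other proprioceptor-linked genes, in WT and HET; filled points passed an adjusted p of 0.05. In WT 10 of the 19 fell and 2 rose, and in HET 3 fell.

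The other proprioceptor-linked genes mostly followed Pvalb, Runx3 and Etv1 rather than Spp1 and Whrn. Of the 19 genes, 10 fell and 2 rose between 12 and 48 h in WT, with a median difference of -0.75 against 0.11 over all genes. The largest falls were those of Ntrk3, the neurotrophin-3 receptor (-1.58, adjusted p = 0.00112), of Chodl, a membrane lectin (-1.53, adjusted p = 0.0135), and of Scn1a, a voltage-gated sodium channel (-1.45, adjusted p = 5.02e-05). The genes that rose were Gabrg1, a GABA-A receptor subunit (1.22, adjusted p = 0.00601), and Asic2, an acid-sensing channel (0.54, adjusted p = 0.0291). The call of Asic2 was lost in the deposited columns without the authors' last scaling.

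In HET, 3 of the 19 fell and none rose, a share near the 14.2% of all genes called in that comparison, with a median of -0.37 against 0.10 over all genes. They were Fxyd7, a regulator of the sodium pump (-0.98, adjusted p = 0.0152), Scn1a (-0.96, adjusted p = 0.0127) and Cntnap2, a protein of the axon next to the node of Ranvier (-0.50, adjusted p = 0.0175). Without HET replicate 3 at 48 h, 3 fell and 1 rose. The HET change was the more positive in 16 of the 19, with none past the test of that difference. Between genotypes at 48 h none of the 19 passed, and the median was -0.02. With the replicate block 2 of the 19 were lower in HET, and 0 without HET replicate 3 as well.

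Summed FPKM of the 19 genes decreased from 427 to 644 at 12 h to 272 to 302 at 48 h in WT, and from 378 to 523 to 292 to 325 in HET, ranges that did not overlap in either genotype. Of 17 nociceptor and pruriceptor markers, 13 fell and 1 rose in WT and 9 fell in HET between 12 and 48 h, with medians of -1.62 and -0.87. Without HET replicate 3 at 48 h, 12 fell and 1 rose in HET, with a median of -1.36. Of 12 markers of low-threshold mechanoreceptors, the touch neurons, 2 fell and 1 rose in WT and 2 fell in HET, with medians of -0.16 and -0.13. Over all genes 17.1% were called lower and 30% higher in WT, and 14.2% in either direction in HET. Pan-neuronal markers, 8 genes, summed to 3878 to 4527 FPKM at 12 h and 4525 to 5002 at 48 h in WT.

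**Figure D5:**
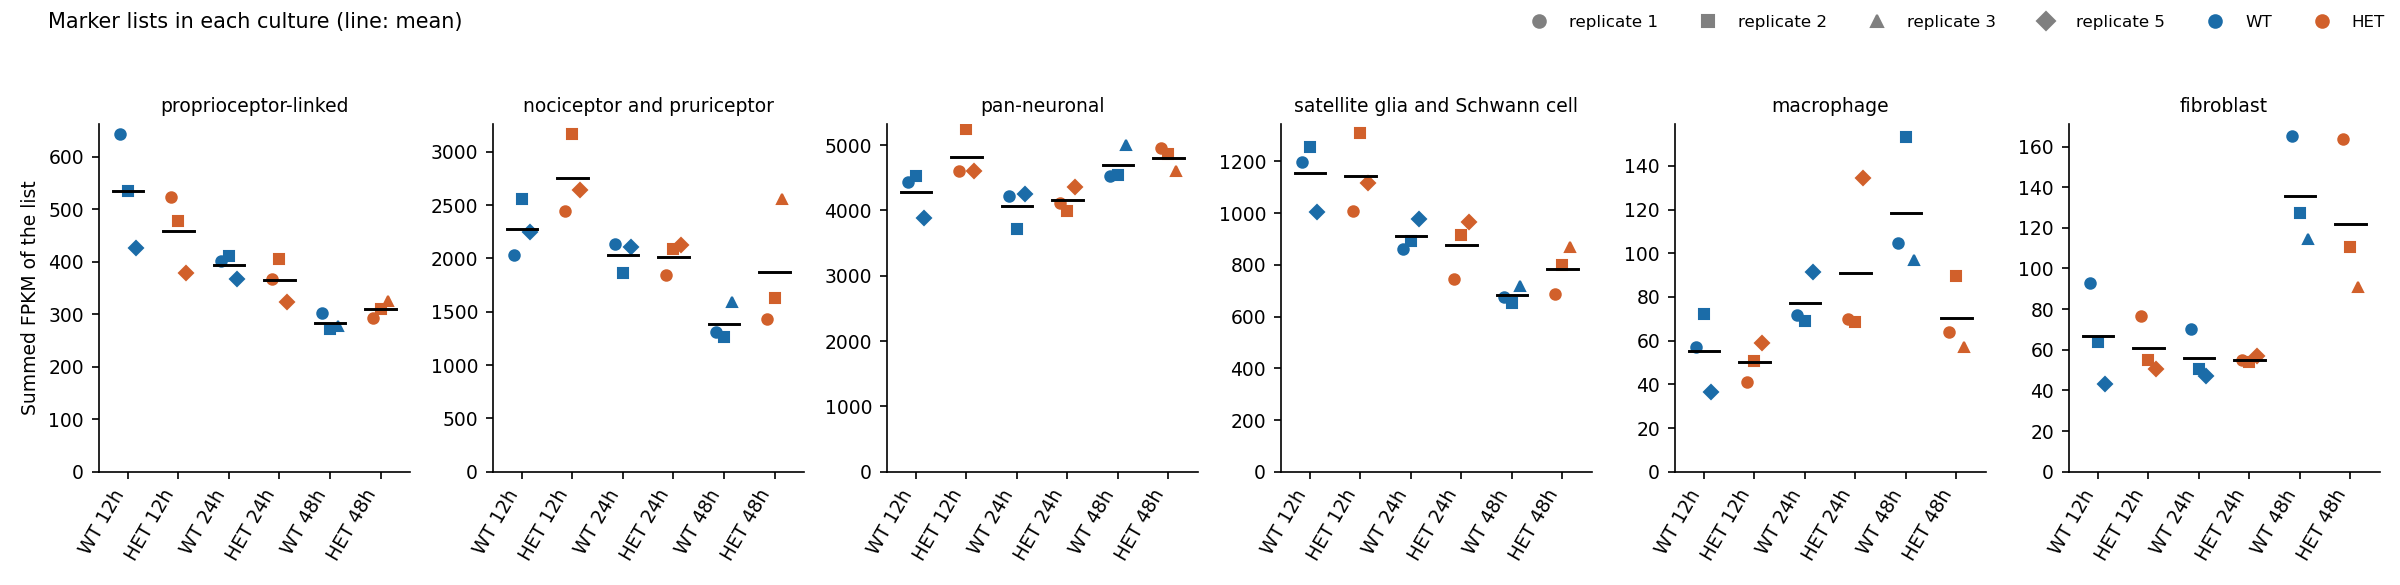
Summed FPKM (vertical axes, starting at 0) of the genes of 6 marker lists in each culture, by genotype and time; points are cultures, with the replicate number as the symbol, and lines are means. Proprioceptor-linked and nociceptor lists were lower at 48 h than at 12 h in WT, and the macrophage list was higher in WT than in HET at 48 h without overlap.

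Genes that act with the 2 transcription factors went in both directions, as did genes over the whole table. Between 12 and 48 h in WT, 30% of all genes were called higher and 17.1% lower. In a list of 9 genes of the neurotrophin-3, TrkC, RUNX and ETS axis, 4 rose and 2 fell between 12 and 48 h in WT, with a median of 0.33. Etv4, an ETS factor of the same subfamily as Etv1, rose by 2.18 (adjusted p = 1.37e-04), while Etv5, its other relative, fell by 0.79 on the log2 scale (adjusted p = 7.79e-05). Isl1, a LIM-homeodomain factor of sensory neurons, rose by 1.83 (adjusted p = 4.33e-05) and Cbfb, the partner subunit of the RUNX proteins, by 0.78 (adjusted p = 0.00109). In HET, Etv4 and Isl1 rose (1.43 and 1.05) and Etv5 fell (-0.42), with adjusted p of 0.0177, 0.0157 and 0.0262. Without HET replicate 3 at 48 h, 4 rose and 1 fell.

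Of the receptors and proteases of osteopontin, 11 of 12 listed genes were measured, and 2 rose and 2 fell in WT between 12 and 48 h. Over all genes 30% were called higher and 17.1% lower there. The integrin subunits Itgb5 and Itgb1 rose (1.18 and 1.15, adjusted p = 3.37e-04 and 5.17e-05), while the matrix metalloproteinases Mmp3 and Mmp9, which cleave osteopontin, fell (-3.08 and -2.90, adjusted p = 1.05e-04 and 0.00814). In HET, Itgb5 and Itgb1 rose (0.83 and 0.67, adjusted p = 0.0214 and 0.0163) and Mmp3 fell (-1.83, adjusted p = 0.0215). The list's median was -0.05 in WT and 0.45 in HET. Without HET replicate 3 at 48 h, 5 rose and 2 fell in HET, with a median of 0.66.

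Of 8 measured genes of 9 listed as partners of whirlin, 2 fell in WT between 12 and 48 h, against 17.1% of all genes. They were Eps8 (-0.99, adjusted p = 0.0129), an actin regulator of stereocilia tips, and Pdzd7 (-0.82, adjusted p = 0.0215), a scaffold related to whirlin. Of calcium-binding proteins of the EF-hand family, 4 of 6 measured genes (7 listed) fell in WT as Pvalb did, with a median of -0.69. The largest falls were those of Vsnl1 (-1.01, adjusted p = 0.00736), Hpca (-0.996, adjusted p = 4.55e-04) and S100b (-0.78, adjusted p = 0.00547). Calb1 and Calb2 did not pass the test. Their mean normalized counts in WT were 501 and 64.3 at 12 h and 964 and 58.9 at 48 h. In HET 3 of the 6 fell, with a median of -0.53, and 1 of 6 did under quantile normalization.

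Fibroblast and some macrophage markers rose in the comparison in which Spp1 and Whrn rose. Between 12 and 48 h, 5 of 7 fibroblast markers rose in WT, against 30% of all genes, and 4 rose in HET. The 7 had medians of 1.34 and 1.04. Their summed FPKM went from 43.3 to 92.9 at 12 h to 114 to 165 at 48 h in WT, and from 50.6 to 76.8 to 91.0 to 163 in HET. Of 12 macrophage markers, 4 rose in WT, a share near the 30% of all genes called higher, among them the complement genes C1qc (1.88, adjusted p = 0.00224) and C1qa (1.60, adjusted p = 0.0171) and the lysosomal gene Cd68 (1.64, adjusted p = 3.73e-04), and 2 fell, Ptprc (-1.66, adjusted p = 0.00747) and Cd14 (-1.31, adjusted p = 0.00694). In HET, Cd68 alone rose (1.03, adjusted p = 0.0325), and without HET replicate 3 at 48 h 1 rose and 2 fell. The part of either list in the rises of Spp1 and Whrn was not tested.

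The 5 markers went together in pairs to different degrees over the 18 cultures. Spp1 and Whrn had a Pearson r of 0.86, which was 0.65 after the group means were taken out. Etv1 ran against both, with r of -0.83 to Spp1 and -0.85 to Whrn (-0.60 and -0.63 within groups). Pvalb and Runx3 had an r of 0.68 (0.62 within groups), and Pvalb and Etv1 0.65 (0.42 within groups). Runx3 and Etv1, the 2 transcription factors, had an r of 0.48 and of -0.01 within groups. Runx3 had an r of -0.23 to Spp1 and -0.06 to Whrn (0.38 and 0.57 within groups). Pvalb had an r of -0.50 to Spp1 and -0.31 to Whrn (0.02 and 0.25 within groups). These values describe cultures that share genotype, time and normalization.

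For each marker the 5 genes with the most similar log2 values over the 18 cultures were named among the genes with a mean of at least 100 normalized counts, 12476 genes beside the member (12477 for Runx3). Pvalb was closest to Clec2l (r = 0.945), Faim2 (0.920), Kcnh2 (0.917), Stk32c (0.908) and B3galt5 (0.907). Runx3 was closest to Shc3 (0.873), Tpcn1 (0.866), Kcnc1 (0.854), Slitrk1 (0.853) and Wnk2 (0.841). Kcnc1, a fast potassium channel subunit, is also on the proprioceptor-linked list.

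Etv1 had the closest companions, Hecw1 (0.984), Dpp6 (0.981), Upp2 (0.975), Nalcn (0.969) and Inadl (0.968). Spp1 was closest to A4galt (0.979), Hey1 (0.972), Babam1 (0.971), Lgals1 (0.971) and Mms19 (0.967), and Whrn to Cluh (0.967), Hk1 (0.965), Fem1a (0.961), Slc4a2 (0.958) and Chst2 (0.956). None of the 5 markers was among the closest genes of another, but Runx3, with a mean under 100 normalized counts, was not among the candidates.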

How the data were processed

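RNA of 18 DRG neuron cultures was sequenced, 3 for each of 2 genotypes at 12, 24 and 48 h. The authors' deposited table holds, for 17198 genes, normalized counts (a signal that is not whole and sums to 1 total per culture), further per-sample signal columns without that last scaling, FPKM, log2 fold changes and adjusted p-values (FDR) between groups. Per the submitters' processing notes, CASAVA 1.8.2, build mm10 and edgeR were used. The aligner, the counting, strand use and any batch correction are not given in the sources used here. The unscaled columns spanned 15 of 17 possible sample directions, so 2 were absent before deposit, by a step not given in the sources used here, and the degrees of freedom below do not allow for it. A further 24 per-sample log2 ratio columns were not used. Depth is unknown.

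Normalized counts were tested with limma 3.58.1 (R 4.3.3) as log2(value + 1), with a coefficient per group, an intensity trend, 12 residual degrees of freedom and Benjamini-Hochberg adjustment over all genes of a comparison (threshold 0.05). A minimum mean of 1 removed 0 genes. Fold changes are on this scale and slightly understate changes of low genes. The 13 comparisons share groups and are not independent. The procedure was tested on simulated data. Member values, lists and Dynlrb1 were named by rule, with up to 3 called genes per direction and list and the 5 closest genes per member. Members and lists were chosen with earlier results of these data known. Listed symbols absent from the table were matched through RefSeq synonyms (Adgre1 as Emr1, Adgrv1 as Gpr98); Mmp7, Myo15a and Ocm were not matched. Gene positions are from GENCODE, promoters from RefSeq GRCm38.p6.

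Same-numbered cultures were checked for shared deviations from group means. Their correlations were 0.321, 0.209 and 0.461 between genotypes at 48 h, all above 0.1, and these numbers were taken as pairs. They were 0.188, 0.0318 and 0.158 at 12 h and 0.109, -0.207 and 0.258 at 24 h, and between times of a genotype at least 1 was at or below 0.1 each time, so those were not.

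Alternatives were the replicate block, a pseudocount of 0.1, a minimum mean of 5 or none, quantile normalization, the unscaled columns, only the groups compared and leaving out each culture. The missing directions as covariates, the block without HET replicate 3 at 48 h, and the change from 24 to 48 h between genotypes were added after seeing the data.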

Additional observations from a re-analysis of the deposited data

How the results depend on the processing

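Of 550 differences of the 5 genes recomputed under settings other than leaving out a culture, 511 kept both direction and call, 8 fell short of the threshold, 18 newly passed it and 13 turned. With 1 culture left out, 491 of 540 did, 21 fell short, 5 newly passed and 23 turned. The 5 calls between 12 and 48 h in WT held under every setting that kept all cultures. No counting limit can be set without the depth, and causes of the changes below were not tested.

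The replicate block raised the number of the 5 genes called from 0 to 3 between genotypes at 48 h, from 0 to 1 averaged over times (Runx3, adjusted p = 0.0247), from 0 to 1 for 24 against 12 h in WT, from 1 to 3 for that step in HET, and from 0 to 2 for 48 against 24 h in HET. For 48 against 24 h in WT and 48 against 12 h in HET it went from 3 to 4, adding Pvalb (adjusted p = 3.74e-04 and 6.47e-05). Only at 48 h were the numbers taken as pairs, from shared deviations and not from labels. Elsewhere same-numbered cultures may share no more than a number. Number 3 was used at 48 h alone, so between times the block sets the 48 h cultures of that number aside. From 24 to 48 h in HET the blocked differences of Pvalb (-1.01) and Spp1 (1.37) were the same with HET replicate 3 left out. Of the sample directions missing from the unscaled columns, 48.4% lay within replicate-number means, so low correlations cannot tell whether cultures pair at other times. The block with HET replicate 3 at 48 h left out gave 0 at 48 h, 1 averaged over times and 2 for 48 against 24 h in HET. With the groups compared alone in the fit, 1 gene was called for 24 against 12 h in WT, 2 for that step in HET and 0 (main 3) for 48 against 12 h in HET. Quantile normalization and the unscaled columns each left 1 of the 3 calls for 48 against 12 h in HET.

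Calls over all genes moved as well. The block gave 2120 at 48 h (main 0; 663 without HET replicate 3), 17 at 12 h (main 1), 0 at 24 h (main 1), 553 averaged (main 3; 299 without that culture), 1621 for 24 against 12 h in WT (main 622), 2888 for 48 against 24 h in HET (main 429), 5301 for 48 against 12 h in HET (main 2442) and 1 for the genotype difference in the change from 24 to 48 h (main 0). Quantile normalization gave 1596 for 48 against 12 h in HET and 276 for HET against WT at 48 h. The unscaled columns gave 2 at 12 h and 1 at 48 h. The groups compared alone gave 0 between genotypes at 24 h, 0 for 48 against 24 h and 0 for 48 against 12 h in HET. The missing directions as covariates gave 0 and 1 between genotypes at 24 and 48 h, 1132 for 24 against 12 h in WT and 841 for 48 against 24 h in HET. With 1 culture left out, the count ran from 0 to 931 between genotypes at 48 h, from 0 to 197 for 24 against 12 h in WT, from 2236 to 4485 for 48 against 24 h in WT (main 4772), from 1141 to 2915 for 24 against 12 h in HET (main 3252), from 0 to 2560 for 48 against 24 h in HET and from 0 to 4886 for 48 against 12 h in HET.

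The differences that turned were all short of the threshold, and all but Pvalb's genotype difference from 24 to 48 h were under 0.35 in size on the log2 scale as first fitted. With the missing directions as covariates, Whrn between genotypes at 24 h was 0.073, Runx3 at 48 h -0.019, Spp1 for 24 against 12 h in WT -0.52, and Pvalb for the genotype difference in that step -0.0099. Spp1 in that WT step was -0.033 under quantile normalization and -0.020 in the unscaled columns, and Pvalb's genotype difference -0.0038 under quantile normalization. The block gave -0.41 for Etv1 from 24 to 48 h in HET and -0.042 for Pvalb's genotype difference in that step, with or without HET replicate 3, and without it -0.34 for Pvalb and -0.070 for Runx3 between genotypes at 48 h.

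With 1 culture left out, the number of genes called ran from 0 to 3 between genotypes at 48 h, from 3 to 5 for 48 against 12 h in WT, from 0 to 1 for 24 against 12 h in HET, from 0 to 1 for 48 against 24 h in HET and from 0 to 3 for 48 against 12 h in HET. Differences that could turn ran from -0.15 to 0.14 for Etv1 and from -0.58 to 0.23 for Spp1 between genotypes at 12 h, from -0.44 to 0.15 for Whrn at 24 h, and from -0.23 to 0.26 for Pvalb and from -0.15 to 0.15 for Runx3 at 48 h. They ran from -0.37 to 0.44 for Spp1 from 12 to 24 h in WT, from -0.25 to 0.39 for Etv1 and from -0.032 to 0.68 for Whrn from 24 to 48 h in HET, and from -0.33 to 0.39 for Pvalb's genotype difference in the step from 12 to 24 h.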
